A study of Mus musculus with 6 samples.

Results

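The Hippo pathway and the targets of its coactivators YAP and TAZ were followed in cultured fetal kidney stroma as 39 genes, taken by gene name from a deposited table of 78409 genes. They comprise 22 pathway components, 3 feedback genes (Lats2, Amotl2 and Ptpn14) that are both components and known YAP targets, and 14 further targets. Each name matched 1 row. The cells were nephrogenic stroma, the interstitial tissue around forming nephrons, sorted for PDGFRa, a receptor of stromal cells. They came from wild-type CD1 mouse kidneys pooled at embryonic day 18. They were cultured for 18 h in medium with serum on glass coverslips spin-coated with the silicone PDMS, which had been held for 4 h in bovine fibronectin at 500 ng/mL (low adhesion, 3 libraries) or 50000 ng/mL (high adhesion, 3 libraries). Both groups are wild type, and the staining and sorting medium of both held the ROCK inhibitor Y27632. Litters 1, 2 and 3 each gave 1 library of each kind, so the main model compares within litters, and a litter is a pool of kidneys rather than an animal. Group means, ranges and statements on overlap take the libraries of a group together, without regard to litter.

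The Hippo pathway limits the activity of YAP (Yap1) and TAZ (Wwtr1), coactivators that cannot bind DNA alone and act through TEAD transcription factors. The kinases MST1 and MST2 (Stk4 and Stk3), with the scaffold SAV1, activate LATS1 and LATS2, which with their MOB1 cofactors phosphorylate YAP and TAZ and keep them out of the nucleus. Cell spreading and actin tension are known to favour nuclear YAP and TAZ, and active YAP raises several of its own inhibitors. The control lies mostly in protein phosphorylation and location, which messenger RNA does not measure.

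Libraries held 12596249 to 13508257 counts. Expression is given as CPM (counts relative to the library total, scaled by edgeR's TMM factors), in which 3 counts equal 0.222 to 0.242 CPM. Pdgfra, the gene of the sort marker, averaged 30.8 CPM on the low and 21.1 CPM on the high adhesion substrate, and the stromal progenitor gene Foxd1 205 and 170.2 CPM. Of 9 stromal markers all were detected and 8 were lower at high adhesion, with summed levels of 2300.3 to 2557 CPM at low and 1945 to 2077 CPM at high adhesion. Among 8 ureteric epithelial markers Krt8 and Krt18 were higher and Gata3 lower at high adhesion, with sums of 271 to 566 and 398 to 805 CPM, mostly Krt18. The ureteric gene Ret was at 0.584 and 0.466 CPM, and the leukocyte list summed to 25.8 to 48.7 and 18.0 to 44.3 CPM, with none of its 6 genes called by edgeR (2 had an unadjusted p under 0.05). Nephron progenitor markers summed to 55.1 to 78.5 and 58.2 to 83.6 CPM with Cited1 higher, nephron epithelial markers to 54.8 to 61.8 and 50.5 to 67.0 CPM with 2 genes higher and 1 lower, and endothelial markers to 67.0 to 87.7 and 70.2 to 99.3 CPM with 1 in each direction. The podocyte gene Podxl averaged 2.79 and 4.24 CPM and was higher in 3 of 3 litters (log2 fold change 0.60, standard error 0.17, edgeR adjusted p = 0.0201). Erythroid markers summed to 201 to 318 and 164 to 331 CPM with 0 called by edgeR, and 0 at an unadjusted p under 0.05. No marker gene was at 0 in all libraries. The part of these shifts in the results below was not tested. In bulk RNA, fewer cells of a type and less RNA per cell cannot be told apart.

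At high adhesion 6 of the targets, Yap1, Tead4 and several regulators that bind LATS, YAP or TEAD were higher, Tead2 and 2 targets were lower, and no gene of the kinase cassette was called. The kinase gene Lats2 was counted with the feedback genes, not in the cassette, and was called higher. Of the 39 genes 38 passed the filter on low counts, and 14 of these were called higher and 3 lower, where called means an edgeR adjusted p under 0.05 over all 14834 tested genes. That is 44.7% of the tested members beside 9.55% of all tested genes (4.71% higher, 4.83% lower). The members were chosen with earlier results of these data known, so these shares describe the list and are no test of the pathway. Among genes of at least 5 CPM, a stricter filter, 14% of all genes and 17 of 37 members were called. Targets had 6 genes higher and 2 lower of 13 tested, and 7 of their log2 fold changes (high minus low adhesion) were positive and 6 negative. Their median log2 fold change was 0.19, which was 0.073 among genes of at least 5 CPM, a set without the scarce target Nt5e. Components had 6 higher and 1 lower of 22, with a median of 0.01, and feedback genes 2 higher of 3, with a median of 0.17. The median over all tested genes was -0.00, and the median absolute change was 0.15 over the members and 0.10 over all genes.

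These changes were small and rested on the comparison within litters. Of the 17 called members only Nt5e reached 1.5-fold, a size that 1.95% of all genes reached with a call. Without litter in the model no member was called by edgeR (lowest adjusted p = 0.217), although 15 of 38 had an unadjusted p under 0.05, and that model called 0.243% of all genes. DESeq2 with litter in its model called 6 of the 37 members it gave an adjusted p, and 3.31% of all genes. Those 6 were Amotl2, Ankrd1, Axl, F3, Gadd45a and Rbms3. They, with Tead4, Wwc1 and Ajuba, made up the 9 members that edgeR also called when any of the 3 litters was left out. Without litter 1, 2 or 3 edgeR called 14, 18 and 10 of 38 members, beside 6.66%, 10.3% and 6.05% of all tested genes.

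**Figure D1:**
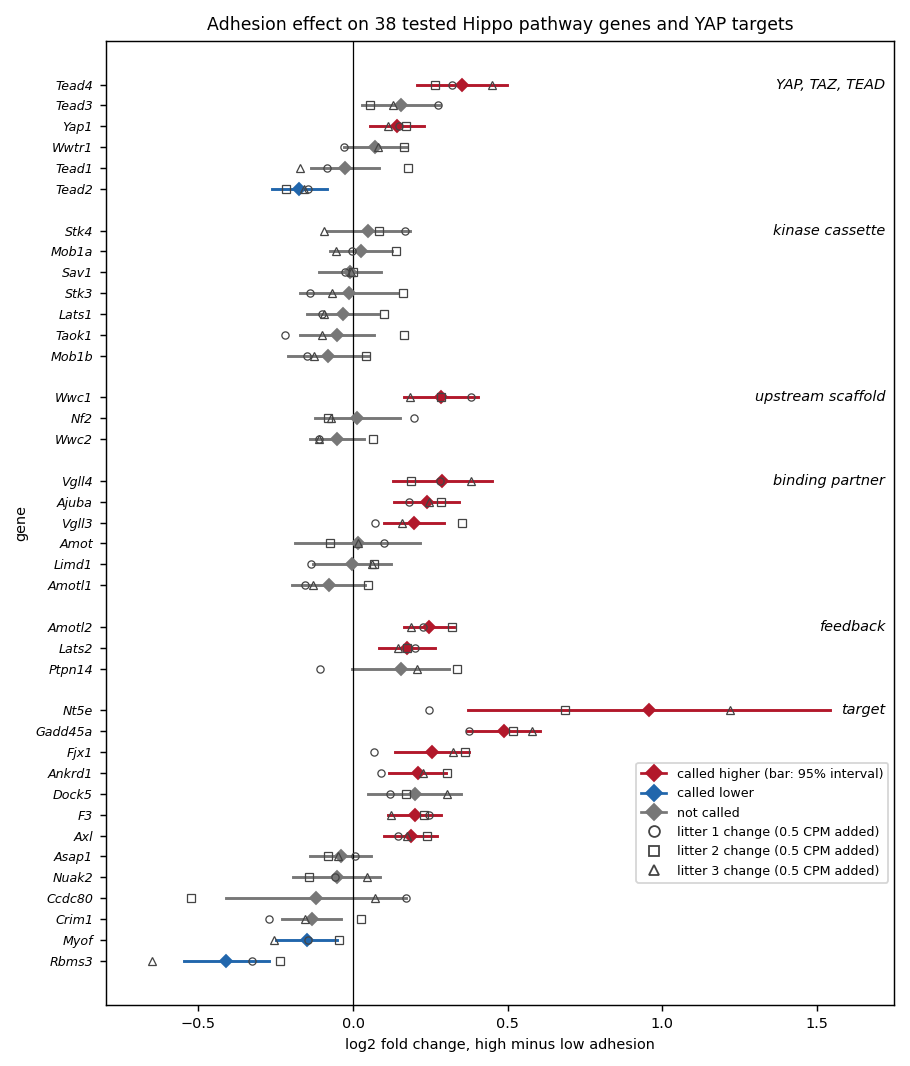
Log2 fold change of each tested member (x axis, high minus low adhesion) by role. Diamonds are the edgeR estimates with 95% intervals, red called higher, blue called lower and grey not called, and open symbols are the changes of single litters. The kinase cassette, which does not include Lats2 (drawn with the feedback genes), has 0 called genes and the targets have 8.

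Before the members are taken in turn, their promoters are shown, because TEAD proteins bind the sequence CATTCC. The RefSeq promoter table (build GRCm38.p6) held 30 of the 39 members. Tead1, Tead4, Stk3, Limd1, Fjx1, Ccdc80, Dock5, Nuak2 and Asap1 had no entry. In the 250 bases before the annotated start, CATTCC on either strand (read as GGAATG where it lies on the opposite strand) was present at 1 or more annotated starts for 14 of 30 members (46.7%), beside 14.4% of all 27025 genes in the table. It was present for 9 of 18 components, 2 of 3 feedback genes and 3 of 9 targets. Among members called higher at high adhesion 7 of 12 had a match, among those called lower 0 of 3 and among those not called 7 of 14. Matches were therefore present beside members called higher and members not called, and a match describes sequence and not binding. The next lines show 30 bases around a match in genes of several roles, and then the whole 250 bases for Amotl2 and Ankrd1, a feedback gene and a target that passed in every edgeR fit with litter in the model. Each is written 5′ to 3′ on the gene's strand with the match in capitals, and coordinates are of GRCm38.p6, not of the authors' build GRCm39.
Yap1, chr9:8004720-8004749, minus strand: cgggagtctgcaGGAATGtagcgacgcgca
Vgll3, chr16:65815114-65815143, plus strand: cccgcctccccaCATTCCggctaccctgcc
Vgll4, chr6:114969268-114969297, minus strand: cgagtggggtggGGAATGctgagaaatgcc
Ajuba, chr14:54577830-54577859, minus strand: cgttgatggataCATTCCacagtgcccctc
Axl, chr7:25788949-25788978, minus strand: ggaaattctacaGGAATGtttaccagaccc
Sav1, chr12:69987091-69987120, minus strand: cggctttcccagCATTCCcagcggcgcggg
Crim1, chr17:78200157-78200186, plus strand: agggcgggggggGGAATGaggtaggatggg
Amotl2, chr9:102717554-102717803, plus strand: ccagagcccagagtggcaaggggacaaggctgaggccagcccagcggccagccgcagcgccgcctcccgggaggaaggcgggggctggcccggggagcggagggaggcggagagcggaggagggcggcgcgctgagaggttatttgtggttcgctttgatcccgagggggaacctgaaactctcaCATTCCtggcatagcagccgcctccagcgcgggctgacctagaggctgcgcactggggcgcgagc
Ankrd1, chr19:36119845-36120094, minus strand: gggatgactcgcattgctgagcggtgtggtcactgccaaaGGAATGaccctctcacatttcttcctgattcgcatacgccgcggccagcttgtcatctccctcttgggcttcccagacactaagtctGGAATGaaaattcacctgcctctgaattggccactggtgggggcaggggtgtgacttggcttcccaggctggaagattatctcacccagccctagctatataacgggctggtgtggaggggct
The match begins 141 bases before the start in Yap1, 63 in Vgll3, 82 in Vgll4, 186 in Ajuba, 233 in Axl, 106 in Sav1, 79 in Crim1 and 65 in Amotl2. Ankrd1 has 2 matches, at 210 and 123 bases. Ajuba has a further match at 164 bases, and Wwc2, not shown, has 3. The lines hold every matched member called higher, but of the matched members not called only Sav1 and Crim1. Wwtr1, Tead3, Mob1a and Ptpn14, also not called, have matches that are not shown. Wwc1, Lats2, F3, Gadd45a and Nt5e were called higher and have no match.

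Of the coactivators, Yap1 was higher and Wwtr1 was not called. Yap1 (ENSMUSG00000053110) stood at 176, 172 and 171 CPM at low adhesion in litters 1, 2 and 3, and at 195, 194 and 185 CPM at high adhesion. All 3 high adhesion libraries lay above all 3 low ones, as they did for 7.95% of all tested genes. The increase was 1.10-fold, or 0.14 ± 0.04 on the log2 scale (n = 3 litters, edgeR adjusted p = 0.0298), where ± after a log2 fold change is its standard error. This call is near the threshold: without any of the litters edgeR gave adjusted p of 0.0617 to 0.136, without the filter on low counts 0.0742, and DESeq2 gave 0.284. Wwtr1 (ENSMUSG00000027803) had 116, 105 and 109 CPM at low and 114, 117 and 115 CPM at high adhesion, which overlap. Its log2 fold change of 0.07 had a 95% interval from -0.03 to 0.17 (edgeR adjusted p = 0.442), an interval that holds the Yap1 estimate. Whether the coactivators differ in response was not tested.

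The TEAD genes moved in different directions. Tead4 (ENSMUSG00000030353) rose 1.28-fold, from 26.3, 23.96 and 23.5 CPM to 32.9, 28.9 and 32.3 CPM, a log2 fold change of 0.35 ± 0.07 (edgeR adjusted p = 0.00126), the largest among the components. Its groups did not overlap, and the call held without each litter but not in DESeq2 (adjusted p = 0.144). Tead2 (ENSMUSG00000030796) fell 1.13-fold, from 165, 183 and 177 CPM to 149.5, 157 and 158 CPM (edgeR adjusted p = 0.00909), and its groups did not overlap either. Without litter 3 edgeR gave Tead2 an adjusted p of 0.0731, and DESeq2 gave 0.125. Tead3 was above its partner in 3 of 3 litters without passing (log2 fold change 0.15, edgeR adjusted p = 0.122; 0.0480 without litter 2). Tead1 overlapped between groups at 301, 300 and 339 CPM at low and 284, 339 and 301 CPM at high adhesion (edgeR adjusted p = 0.851), and passed as lower without litter 2 (edgeR adjusted p = 0.0369).

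Levels of different genes were compared as CPM per kb of merged exon, with exon lengths from GENCODE M21 rather than the authors' annotation. On that scale Tead2 held on average 48.5% of the summed TEAD level in the low adhesion libraries, never under 47.6%, and 43.6% to 45.2% in the high ones. In CPM Tead1 was above Tead2, with means of 313 and 175 CPM at low adhesion. The order per length rests on merged exon lengths of 10051 and 3501 bases, which need not be those of the expressed transcripts. The share of Tead4 was 6.22% to 7.38% at low and 7.82% to 9.37% at high adhesion. Tead3 held 13.8% to 15.0% and then 15.8% to 18.2%, and Tead1 overlapped between the groups, at 28.6% to 32.1% and 28.8% to 32.8%. Yap1 exceeded Wwtr1 by 1.74 to 1.96 times per length over the 6 libraries. These shares follow from the changes of the single genes and are no separate test.

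**Figure D2:**
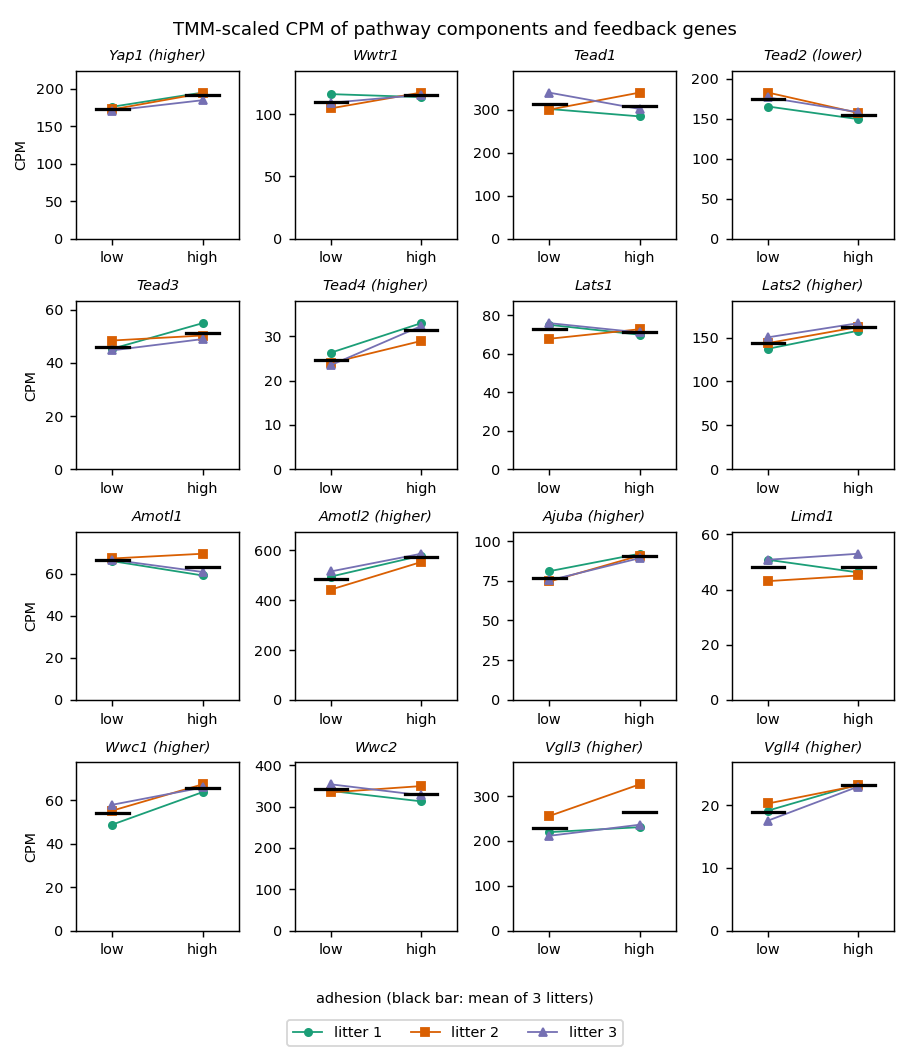
TMM-scaled CPM (y axis, from 0) of 16 components and feedback genes at low and high adhesion, each line joining the libraries of 1 litter and each black bar the mean of 3. Yap1, Tead4, Lats2, Amotl2, Ajuba, Wwc1, Vgll3 and Vgll4 were called higher and Tead2 lower.

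In the core kinase cassette the median absolute log2 fold change was 0.033, the lowest of the 6 roles. Lats2 is also a core kinase but was counted with the feedback genes, where it was called higher, so the cassette values leave it out. The median change of the cassette was -0.10, 0.10 and -0.09 in litters 1, 2 and 3, so small fitted changes here can combine opposite litters. None of its 7 genes (Stk3, Stk4, Sav1, Lats1, Mob1a, Mob1b and the MST-activating kinase Taok1) was called, and none moved the same way in 3 of 3 litters, as 20.9% of all tested genes did upwards and 20.4% downwards. Their log2 fold changes ran from -0.08 to 0.05, and the 95% intervals together spanned -0.21 to 0.18. At an unadjusted p under 0.05 the count was likewise 0, and DESeq2 called 0. Sav1 (ENSMUSG00000021067) had 94.7, 96.4 and 98.4 CPM at low and 93.0, 96.5 and 98.0 CPM at high adhesion, with the groups almost coinciding. Lats1 (ENSMUSG00000040021) had 75.0, 67.8 and 75.9 CPM at low and 69.9, 72.7 and 71.0 CPM at high adhesion, with the low group wider than the high. Taok1 went down in litters 1 and 3 and up in litter 2 (log2 changes -0.22, -0.10 and 0.16), and without litter 2 it passed as lower (edgeR adjusted p = 0.0168). Within the group the per-length level was highest for Sav1 (38.2 CPM per kb at low adhesion) and Mob1a (27.9) and lowest for Mob1b (4.69), with Stk3 and Stk4 close together at 8.05 and 7.28.

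Upstream of the kinases, the scaffold gene Wwc1 was higher and its paralog Wwc2 and Nf2 were not called. Wwc1 (ENSMUSG00000018849), which encodes KIBRA, a partner of the tumour suppressor merlin, had 48.7, 55.1 and 57.8 CPM at low and 63.7, 67.2 and 65.8 CPM at high adhesion. The groups did not overlap, and the log2 fold change was 0.28 ± 0.06 (edgeR adjusted p = 0.00158; DESeq2 adjusted p = 0.0709). Wwc2 (ENSMUSG00000031563) was the more abundant paralog, at 338, 335 and 354 CPM and then 313, 349.95 and 328 CPM, with overlap (edgeR adjusted p = 0.529). Per length the Wwc2 to Wwc1 ratio was 3.17 to 3.62 at low and 2.57 to 2.72 at high adhesion, lower in 3 of 3 litters. Nf2, the merlin gene, had a log2 fold change of 0.01 with a 95% interval from -0.12 to 0.15. Wwc2 held fractional counts in 4 of 6 libraries. Such values show that some reads were divided between features, by a rule not given in the sources used here.

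Proteins that bind LATS, YAP or TEAD gave 3 called genes of 6, all higher. Ajuba (ENSMUSG00000022178), a LIM protein that holds LATS inactive at tense junctions, went from 81.0, 74.5 and 75.3 CPM to 92.0, 90.8 and 89.2 CPM, without overlap, a log2 fold change of 0.24 ± 0.05 (edgeR adjusted p = 0.00248; DESeq2 adjusted p = 0.0845). Its counts were fractional in 6 of 6 libraries. Limd1, a LIM protein of the same family, overlapped between groups (log2 fold change -0.00, 95% interval -0.13 to 0.12), whereas Wtip, the remaining family member and not among the 39, was higher by a log2 fold change of 0.15 (edgeR adjusted p = 0.0353), a call absent without litter 1 or 3 (up to 0.319).

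The TEAD cofactors Vgll3 and Vgll4 were both higher. Vgll4 (ENSMUSG00000030315), which competes with YAP for TEAD, had 19.2, 20.3 and 17.6 CPM at low and 23.4, 23.2 and 23.01 CPM at high adhesion. The high adhesion values were nearly equal and all above the low ones, and the log2 fold change was 0.29 ± 0.08 (edgeR adjusted p = 0.0162). The call was absent without litter 1 (edgeR adjusted p = 0.0652), without litter 3 (0.204) and in DESeq2 (0.499). Vgll3 (ENSMUSG00000091243) had 219, 256 and 211 CPM at low and 231, 326 and 236 CPM at high adhesion. Litter 2 was above the other litters on both substrates, and the groups overlapped although every litter rose, by log2 changes of 0.07, 0.35 and 0.16. Its fitted log2 fold change was 0.20 ± 0.05 (edgeR adjusted p = 0.00725), and without litter 2 it was 0.11 with an adjusted p of 0.0987. DESeq2 gave 0.0768.

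Of the angiomotin genes, whose products tether YAP in the cytoplasm, Amotl2 was higher, and whether the family members differ in response was not tested. Amot and Amotl1 were not called, with log2 fold changes of 0.01 and -0.08 (edgeR adjusted p = 0.957 and 0.472) and 95% intervals from -0.19 to 0.22 and from -0.20 to 0.04. Amotl2 (ENSMUSG00000032531), the family member that YAP is known to induce, rose from 495, 443 and 516 CPM to 579, 554 and 587 CPM. The groups did not overlap and the rise was 1.18-fold, a log2 fold change of 0.24 ± 0.04 (edgeR adjusted p = 0.000104, DESeq2 adjusted p = 0.000135). Leaving out each litter gave edgeR adjusted p of 0.000188 to 0.000712. Amotl2 was also the most abundant of the 25 components and feedback genes per length, at 109 CPM per kb at low and 128.5 at high adhesion, and exceeded Amotl1 by 13.5 to 15.9 times at low and 16.3 to 20.1 times at high adhesion.

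The other feedback genes were Lats2 and Ptpn14. Lats2 (ENSMUSG00000021959), the LATS kinase gene that YAP is known to induce, had 137, 144 and 150.2 CPM at low and 158, 162 and 166 CPM at high adhesion. Every high adhesion value exceeded every low one, and the log2 fold change was 0.17 ± 0.04 (edgeR adjusted p = 0.00969). The call was absent without litter 1 (edgeR adjusted p = 0.0886), without litter 3 (0.0604) and in DESeq2 (0.148), while its log2 fold change stayed between 0.16 and 0.19 in the leave-outs. Lats2 counts were fractional in 4 of 6 libraries. The per-length ratio of Lats1 to Lats2 was 0.419 to 0.485 at low and 0.379 to 0.398 at high adhesion. Ptpn14, a phosphatase that binds YAP, fell in litter 1 and rose in litters 2 and 3 (30.8, 30.3 and 30.5 CPM, then 28.6, 38.3 and 35.3 CPM). It was not called (edgeR adjusted p = 0.239) but passed as higher without litter 1 (0.0394).

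**Figure D3:**
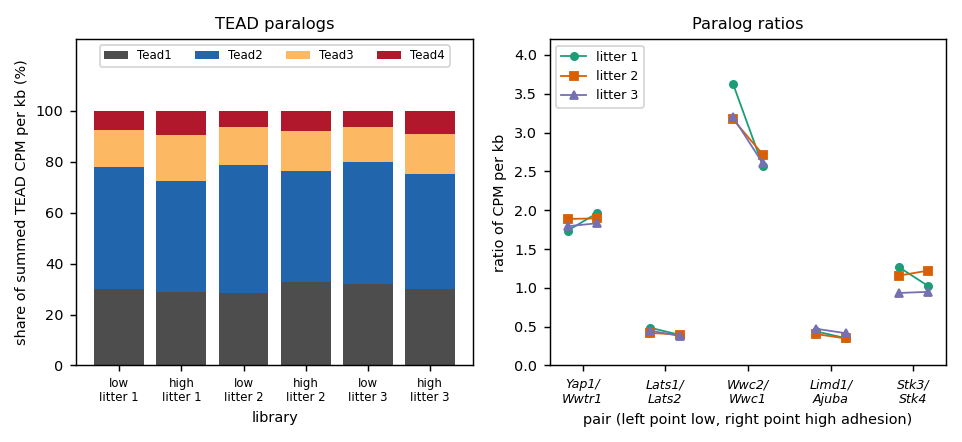
Left, share (%) of each TEAD gene in the summed TEAD level per kb of exon in the 6 libraries. Right, ratios of CPM per kb between paralogs, left point low and right point high adhesion of the same litter, where Lats1 to Lats2, Wwc2 to Wwc1 and Limd1 to Ajuba are lower at high adhesion in 3 of 3 litters.

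The 14 targets did not move as a block. Called higher were Ankrd1, Axl, F3, Fjx1, Gadd45a and Nt5e, and called lower were Myof and Rbms3. Crim1, Ccdc80, Dock5, Nuak2 and Asap1 were not called, and the forkhead gene Foxf2 was too scarce to test, with 10, 6 and 9 counts at low and 7, 9 and 10 at high adhesion. The group medians of the change within each litter were 0.09, 0.17 and 0.12 on the log2 scale for targets, and -0.01, 0.12 and -0.03 for components.

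Ankrd1 (ENSMUSG00000024803), an ankyrin repeat protein gene widely used as a YAP reporter, had 201, 219 and 184 CPM at low and 214, 270.5 and 215 CPM at high adhesion. Litter 2 was high on both substrates and the groups overlapped. Within litters it rose in 3 of 3, and its fitted log2 fold change was 0.21 ± 0.04 (edgeR adjusted p = 0.0024, DESeq2 adjusted p = 0.0345). Axl (ENSMUSG00000002602), a receptor tyrosine kinase gene, went from 212, 204 and 202 CPM to 235, 241 and 228 CPM without overlap, a log2 fold change of 0.19 ± 0.04 (edgeR adjusted p = 0.00359, DESeq2 adjusted p = 0.0475). F3 (ENSMUSG00000028128), which encodes tissue factor, the starter of blood clotting, went from 255, 241 and 277 CPM to 302, 283 and 302 CPM, also without overlap (log2 fold change 0.20 ± 0.04, edgeR adjusted p = 0.0018). F3 was the most abundant of the 39 genes per length, at 138 CPM per kb at low and 158 at high adhesion. These 3 targets kept their call without any single litter.

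Gadd45a (ENSMUSG00000036390), a stress and DNA damage response gene, had the lowest adjusted p of the members. It stood at 79.0, 39.8 and 43.8 CPM at low and 103, 57.1 and 65.8 CPM at high adhesion, so that litter 1 exceeded the others on both substrates and the groups overlapped. Each litter rose, by log2 changes of 0.38, 0.52 and 0.58, and the fitted log2 fold change was 0.49 ± 0.06 (edgeR adjusted p = 1.56e-06, DESeq2 adjusted p = 1.93e-05). Fjx1 (ENSMUSG00000075012), a relative of the fly gene four-jointed, rose from 68.0, 65.6 and 69.1 CPM to 71.3, 84.5 and 86.4 CPM, where litter 1 changed least (log2 fold change 0.25 ± 0.06, edgeR adjusted p = 0.00486; 0.0557 without litter 3, and 0.126 in DESeq2). Nt5e (ENSMUSG00000032420), the gene of the ectoenzyme CD73, had the largest fold of the members, 1.94, at the lowest level of those tested. It was at 1.30, 0.913 and 0.606 CPM at low and 1.63, 1.77 and 2.07 CPM at high adhesion, or 17, 12 and 8 counts against 21, 22 and 28. Its log2 fold change of 0.96 had a 95% interval from 0.37 to 1.54 (edgeR adjusted p = 0.0312), and the call was absent without litter 2 (0.0608) or litter 3 (0.370).

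Rbms3 (ENSMUSG00000039607), an RNA-binding protein gene, fell most, from 61.2, 76.7 and 83.3 CPM to 48.7, 65.1 and 52.9 CPM. Each litter fell although the groups overlapped, with litter 3 falling most (log2 change -0.65), and the fitted log2 fold change was -0.41 ± 0.07 (edgeR adjusted p = 0.000173, DESeq2 adjusted p = 0.00353). Myof (ENSMUSG00000048612), the membrane repair gene for myoferlin, had 148, 139.6 and 151 CPM at low and 134, 135 and 127 CPM at high adhesion without overlap, as 7.67% of all tested genes were lower. Its call (log2 fold change -0.15, edgeR adjusted p = 0.0443) was absent without litter 1 (0.142), without litter 3 (0.523) and in DESeq2 (0.400). Crim1, a transmembrane protein gene among the most abundant members at 588 and 536 CPM, had a log2 fold change of -0.13 (edgeR adjusted p = 0.0659). It passed as lower among genes of at least 5 CPM (0.0474), without a filter (0.0279) and without litter 2 (0.000103). Dock5, an exchange factor gene for Rac, was above in 3 of 3 litters without passing (log2 fold change 0.20, edgeR adjusted p = 0.0885), and the 95% intervals of Nuak2, Asap1 and Ccdc80 all held 0.

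**Figure D4:**
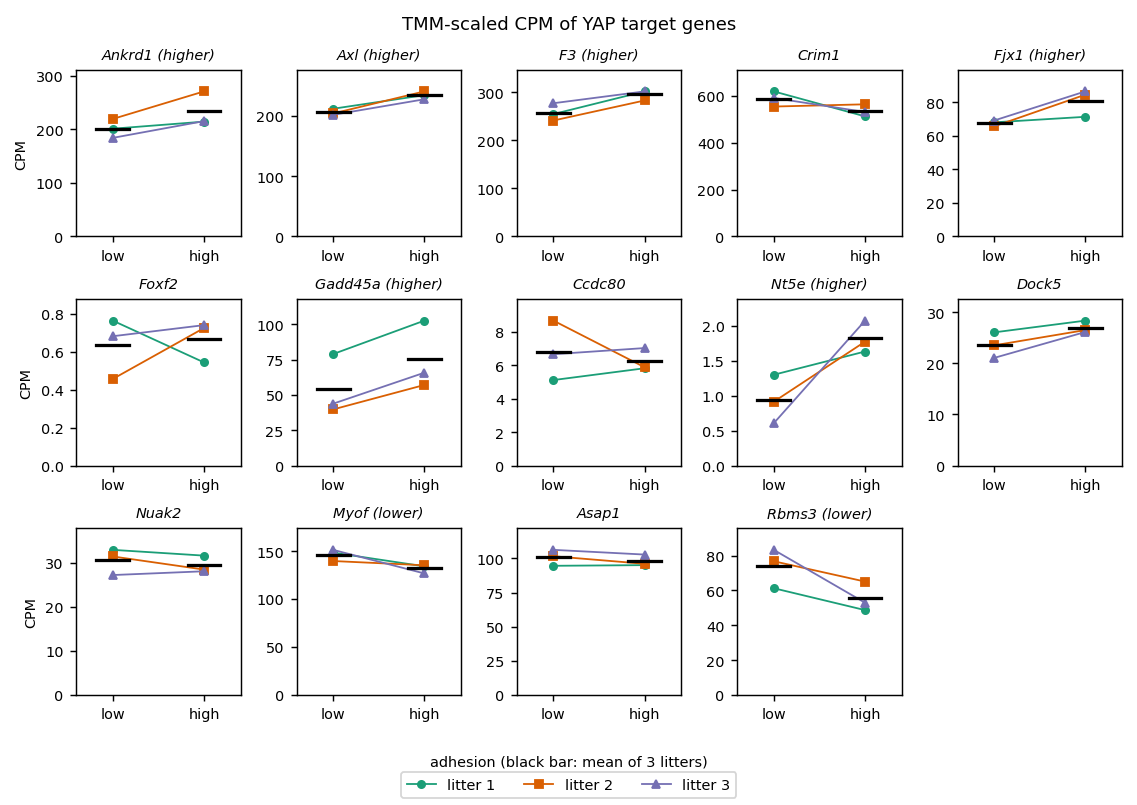
TMM-scaled CPM (y axis, from 0) of the 14 target genes at low and high adhesion, each line joining the libraries of 1 litter and each black bar the mean of 3. Gadd45a rises in each litter from different starting levels, Rbms3 falls in each, and Foxf2 stays under 1 CPM.

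Litters differed in 4 of the 38 tested members (edgeR adjusted p under 0.05 for litter in the same model), beside 17.9% of all tested genes. These were Gadd45a (adjusted p = 1.72e-10), Vgll3 (1.82e-05), Ankrd1 (0.000461) and Rbms3 (0.00466). Mean levels over both substrates were 90.8, 48.4 and 54.8 CPM for Gadd45a in litters 1, 2 and 3, so the highest litter was 1.87 times the lowest. Vgll3 and Ankrd1 were both highest in litter 2, at 291 and 245 CPM, and Rbms3 was lowest in litter 1, at 55.0 CPM. None of the 7 kinase cassette genes and none of the 6 coactivator and TEAD genes passed this litter test.

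**Figure D5:**
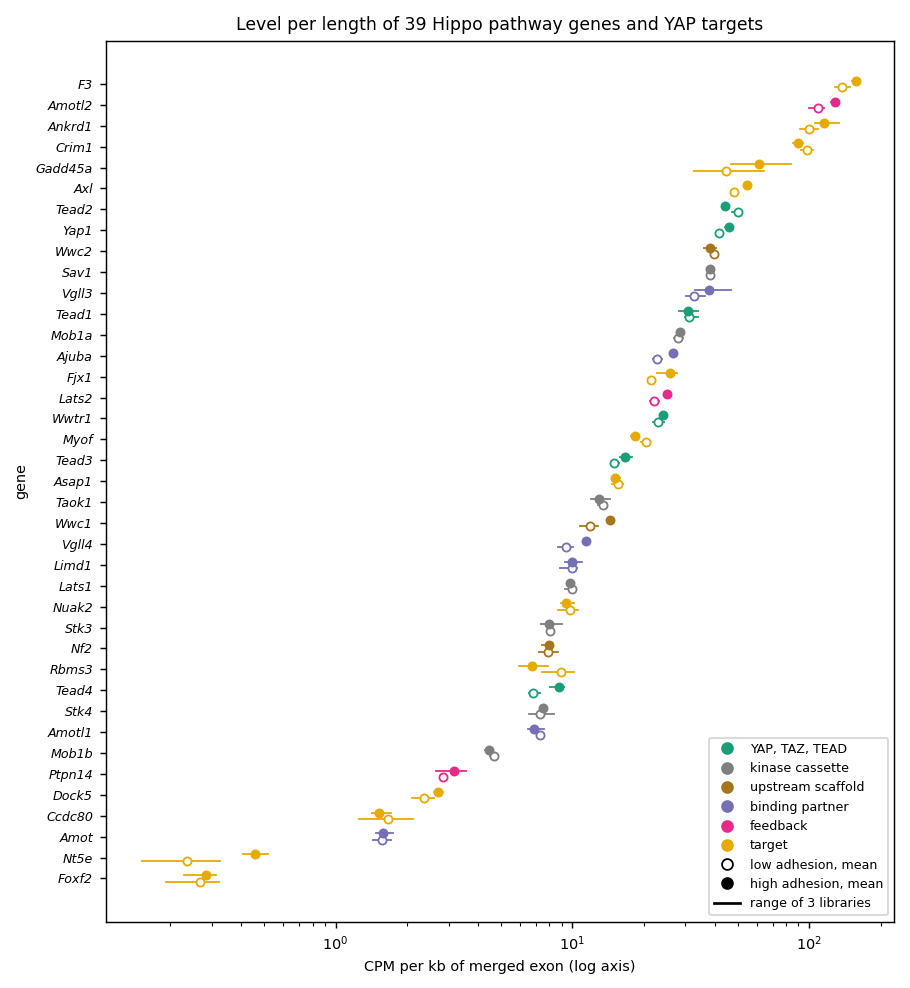
Level of each of the 39 members in CPM per kb of merged exon (log axis), open circles the mean at low and filled circles at high adhesion, lines the range of 3 libraries, coloured by role. F3 and Amotl2 are at the top, and Nt5e and Foxf2 lie under 1.

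Further genes of the pathway were compared in the same fit, from a list also chosen with earlier results of these data known. Among 32 other components found by name, 30 were tested, with 3 higher and 1 lower, or 13.3% beside 9.55% of all tested genes. Rassf1, whose product binds the MST kinases, was higher by a log2 fold change of 0.36 ± 0.04 (edgeR adjusted p = 2.55e-06), with 128.2 ± 3.05 CPM (SD, n = 3) at low and 164 ± 3.02 CPM at high adhesion. Its call remained without litter in the model (edgeR adjusted p = 0.0459), though its counts were fractional in 5 of 6 libraries. Csnk1e, a casein kinase gene, was higher by 0.14 (edgeR adjusted p = 0.0241; up to 0.220 with a litter left out, namely litter 2 or 3), and Wtip is given above. The gene called lower in this list was Fat4, an atypical cadherin gene known to act in kidney stroma, from 24.02 ± 6.80 CPM (SD, n = 3) at low to 17.1 ± 2.39 CPM at high adhesion, a log2 fold change of -0.48 (edgeR adjusted p = 0.000411, DESeq2 adjusted p = 0.0783). Taok2 and Taok3, paralogs of Taok1, had log2 fold changes of 0.05 and 0.05 (edgeR adjusted p = 0.736 and 0.741).

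Of 37 other genes reported as YAP or TAZ targets 11 were higher and 5 lower, or 43.2% beside 9.55% of all tested genes, with a median log2 fold change of 0.05. These targets too were listed with earlier results known, so the share is no test. The phosphatase gene Dusp1 (log2 fold change 0.47), the transglutaminase gene Tgm2 (0.86) and the growth factor gene Tgfb2 (0.38) were higher, and the growth factor gene Fgf2 was lower (-0.66), with edgeR adjusted p of 4.90e-09, 5.96e-09, 3.76e-07 and 2.96e-06. The reporters Ccn1 and Ccn2 stood far above the members, at 2706 and 7810 CPM at low adhesion, and were above in 3 of 3 litters without passing (log2 fold changes 0.08 and 0.10, edgeR adjusted p = 0.162 and 0.0554). Litters differed in 18 of these 37 targets, and in 17.9% of all tested genes.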

How the data were processed

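Polyadenylated RNA was measured in 6 libraries, low and high adhesion from each of 3 litters. STAR 2.7.11, featureCounts from Subread 2.1.1, fastp 0.24.0, SAMtools 1.22.1, FastQC 0.12.1, MultiQC 1.32 and build GRCm39 are named per the submitters' processing notes. Not given in the sources used here are the annotation, the strand setting and the treatment of multiply mapped reads, so antisense partners cannot be told apart. The authors deposited estimated counts per gene, unscaled, of which 57.3% to 59.8% lay in genes with fractional values, and CPM. CPM recomputed from these counts differed from the deposited CPM by at most 5.09e-11.

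Counts were rounded, filtered with filterByExpr (14834 genes kept), scaled by TMM (0.988 to 1.01) and fitted with edgeR 4.0.16 in R 4.3.3 as a robust quasi-likelihood model of litter and adhesion. P-values were two-sided with Benjamini-Hochberg adjustment across every tested gene. Standard errors are the absolute log2 fold change over the root of the quasi-likelihood F. The litter block follows from the series' litter-matched design. Deviations from group means correlated at 0.58, 0.58 and 0.36 within litters 1, 2 and 3 and at -0.49 to -0.08 between litters. Because deviations balance out within each group, the between-litter values are not independent of the within-litter ones. limma 3.58.1 (voom) and DESeq2 1.42.0 were alternatives. Changes of single litters used a pseudocount of 0.5 CPM. The model was also run on data simulated from its own fit, which cannot show whether its dispersions suit these data.

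The members and lists were chosen with earlier results of these data known. Named genes are all 39 members, plus Ccn1, Ccn2, Tgfb2, Pdgfra, Foxd1, paralogs of members (Wwc3 was not analysed here), and up to 4 called genes of lowest adjusted p in each list of further genes. Krt8, Krt18, Gata3, Cited1, Ret and Podxl were named after their values were seen. The other podocyte markers are not reported here. No set test was run.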

Additional observations from a re-analysis of the deposited data

How the results depend on the processing

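Over the 38 tested members, edgeR with DESeq2-type size factors, limma-voom and fractional counts rounded down left every direction and call as reported. In edgeR, without a filter on low counts Yap1 missed the threshold and Crim1 passed, as Crim1 also did among genes of at least 5 CPM. Without the replicate block 36 genes of the table were called (1359 at an unadjusted p under 0.05), with 0 members higher, 0 lower, 0 targets higher, 0 components higher and 0 lower. DESeq2 called 375 genes, with 5 members higher, 1 lower and 0 components in either direction, and 820 genes for litter. Among genes of at least 5 CPM the median of the targets was 0.073, as Nt5e is not in that set. Leaving out each litter gave 908 to 1553 called genes, 9 to 12 members higher and 1 to 6 lower, 4 to 6 targets higher, 4 to 5 components higher and 0 to 3 lower, 1384 to 2687 genes for litter and a median of the targets of 0.15 to 0.18. These fits rest on 4 libraries, and the cause of each change was not tested. There 10 of the 21 uncalled members changed sign, with log2 fold changes from -0.13 to 0.048 for Tead1, -0.11 to 0.050 for Stk3, -0.0078 to 0.13 for Stk4, -0.10 to 0.0017 for Lats1, -0.16 to 0.032 for Taok1, -0.078 to 0.061 for Nf2, -0.027 to 0.055 for Amot, -0.038 to 0.064 for Limd1, -0.032 to 0.067 for Mob1a and -0.24 to 0.12 for Ccdc80. No called member changed sign in any alternative. Depth limits Foxf2 and Nt5e, which had at most 28 counts in a library.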
